A study of Mus musculus with 7 samples.

Results

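Macrophages of skeletal muscle were followed through 10 marker genes, *C1qa*, *C1qb*, *C1qc*, *Csf1r*, *Cd68*, *Mrc1*, *Cd163*, *Lyz2*, *Adgre1* and *Ptprc*. The genes were chosen by symbol, and all 10 were present among the 12239 genes measured by RNA sequencing. The tissue, the tibialis anterior (TA) of the shin, is made mostly of fast-twitch fibres and came from male FVBN mice that the labels age at 5-6 months, with 4 wild-type (WT) and 3 C2-/- libraries. C2-/- mice lack *Mybpc2*, the gene of fast skeletal myosin-binding protein C, because a Neo cassette flanked by LoxP sites stands in place of exons 2 to 22, and this constitutive allele is carried by every cell type of the muscle. Whole muscle was used with no sorting of cells, and the labels do not state whether animals were pooled. The study's methods and a supplementary legend begin the age range earlier than the labels, and the design text of the series gives groups of equal size. *Mybpc2* itself was counted 25665 to 110159 times per WT library and 3 to 8 times per C2-/- library.

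Resident macrophages lie between the fibres of healthy muscle, where they clear debris and apoptotic cells, store iron and support muscle stem cells, and further macrophages arise from blood monocytes after injury. The marker genes fall into several roles. *C1qa*, *C1qb* and *C1qc* encode the A, B and C chains of C1q, the recognition molecule that starts the classical complement pathway and is made mainly by tissue macrophages. *Mrc1* encodes the mannose receptor CD206, an endocytic receptor that is also made by lymphatic and some other endothelial cells, and *Cd163* encodes the scavenger receptor for haptoglobin-haemoglobin complexes. Both are classical markers of resident and repair-type macrophages. *Csf1r* encodes the receptor for the macrophage growth factors CSF1 and IL-34. *Cd68* encodes a lysosomal membrane glycoprotein, *Lyz2* encodes lysozyme M, *Adgre1* encodes the surface antigen F4/80, and *Ptprc* encodes CD45, the tyrosine phosphatase carried by all leukocytes.

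The promoters of *Mrc1* and *Cd163*, which rose in C2-/- muscle, and of *C1qb* and *C1qc*, neighbouring C1q genes of which only *C1qc* was lower past the threshold, are shown for orientation. Each runs from 250 bases before to 50 bases after the start used by the RefSeq promoter table (GRCm38.p6), 5′ to 3′ on the strand of the gene. For *Mrc1* and *C1qb* that start is the outer end of the gene, and for *Cd163* and *C1qc* it lies inside the annotated gene. Capitals mark the 6 letters GAGGAA, the core bound by the myeloid factor PU.1, or TTCCTC, the same core on the other strand.
Mrc1, chr2:14229164-14229463, plus strand: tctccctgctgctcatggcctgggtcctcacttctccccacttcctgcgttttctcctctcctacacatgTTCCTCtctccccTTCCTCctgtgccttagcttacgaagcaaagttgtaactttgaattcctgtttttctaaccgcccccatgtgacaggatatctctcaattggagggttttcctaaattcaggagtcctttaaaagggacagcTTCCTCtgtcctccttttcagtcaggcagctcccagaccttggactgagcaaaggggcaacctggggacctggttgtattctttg
Cd163, chr6:124304401-124304700, plus strand: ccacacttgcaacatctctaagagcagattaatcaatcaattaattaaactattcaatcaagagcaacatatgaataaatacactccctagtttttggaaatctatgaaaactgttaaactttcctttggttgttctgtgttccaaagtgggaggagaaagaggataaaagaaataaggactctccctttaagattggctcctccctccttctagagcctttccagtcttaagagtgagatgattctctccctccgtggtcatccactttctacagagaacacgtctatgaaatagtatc
C1qb, chr4:136886151-136886450, minus strand: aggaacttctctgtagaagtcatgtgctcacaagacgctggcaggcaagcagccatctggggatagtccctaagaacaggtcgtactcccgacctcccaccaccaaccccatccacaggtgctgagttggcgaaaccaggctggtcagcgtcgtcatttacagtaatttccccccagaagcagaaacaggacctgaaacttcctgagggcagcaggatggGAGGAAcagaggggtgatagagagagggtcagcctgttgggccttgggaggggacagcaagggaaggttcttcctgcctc
C1qc, chr4:136892865-136893164, minus strand: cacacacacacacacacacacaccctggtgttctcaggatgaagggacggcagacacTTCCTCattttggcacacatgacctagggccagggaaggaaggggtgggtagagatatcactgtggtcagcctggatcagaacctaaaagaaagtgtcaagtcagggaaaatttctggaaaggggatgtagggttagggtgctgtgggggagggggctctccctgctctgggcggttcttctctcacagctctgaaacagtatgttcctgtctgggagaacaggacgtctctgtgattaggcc
*Mrc1* held 3 matches, beginning at positions -180, -167 and -35 from that start. Of the others, *C1qb* held 1 at -30, *C1qc* held 1 at -193 and *Cd163* held 0. On either strand, 28.3% of 32851 RefSeq promoters of the same length held at least 1 match and 0.685% held 3 or more. The promoter table covered 7 of the 10 marker genes, and 5 of these 7 had a match. A match is a run of letters, and it was not tested as a binding site.

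Levels are given as log2 CPM, the counts per 1000000 reads after TMM scaling, and changes are C2-/- minus WT on that log2 scale with the standard error (SE) from limma. A gene was past the threshold with a Benjamini-Hochberg adjusted p under 0.05 over all 12239 genes and a fold change above 1.5 either way. The libraries differed in depth, with 4683853 to 15464499 reads per WT library and 2613277 to 4917936 per C2-/- library, and only WT replicate 4 among the WT libraries had under 14929214 reads. A count of 3 reads was worth 0.195 to 1.12 CPM, depending on the library. A gene with 0 reads was placed between -4.94 and -2.42 by the 0.5 reads added before the log. Counting error is the only error such floors cover.

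Of the 10 marker genes, 4 were past the threshold by limma. *Mrc1* and *Cd163* were higher and *C1qa* and *C1qc* were lower in C2-/- muscle, and *C1qb*, *Csf1r*, *Cd68*, *Lyz2*, *Adgre1* and *Ptprc* did not pass. Over all genes 45.2% were past the same threshold, 20.2% as higher and 25.0% as lower in C2-/-, so the count of 4 among 10 stood near the background. The split between higher and lower genes over the whole table moved from 2473 and 3055 to 3040 and 2594 when each library was centred on its median. The same 4 marker genes were those whose WT and C2-/- values did not overlap, a pattern shown by 49.3% of all genes. The median change was 0.12 over the 10 marker genes and -0.14 over all genes. RNA of whole muscle was measured, so a change in the number of macrophages and a change in RNA per macrophage cannot be told apart.

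**Figure D1:**
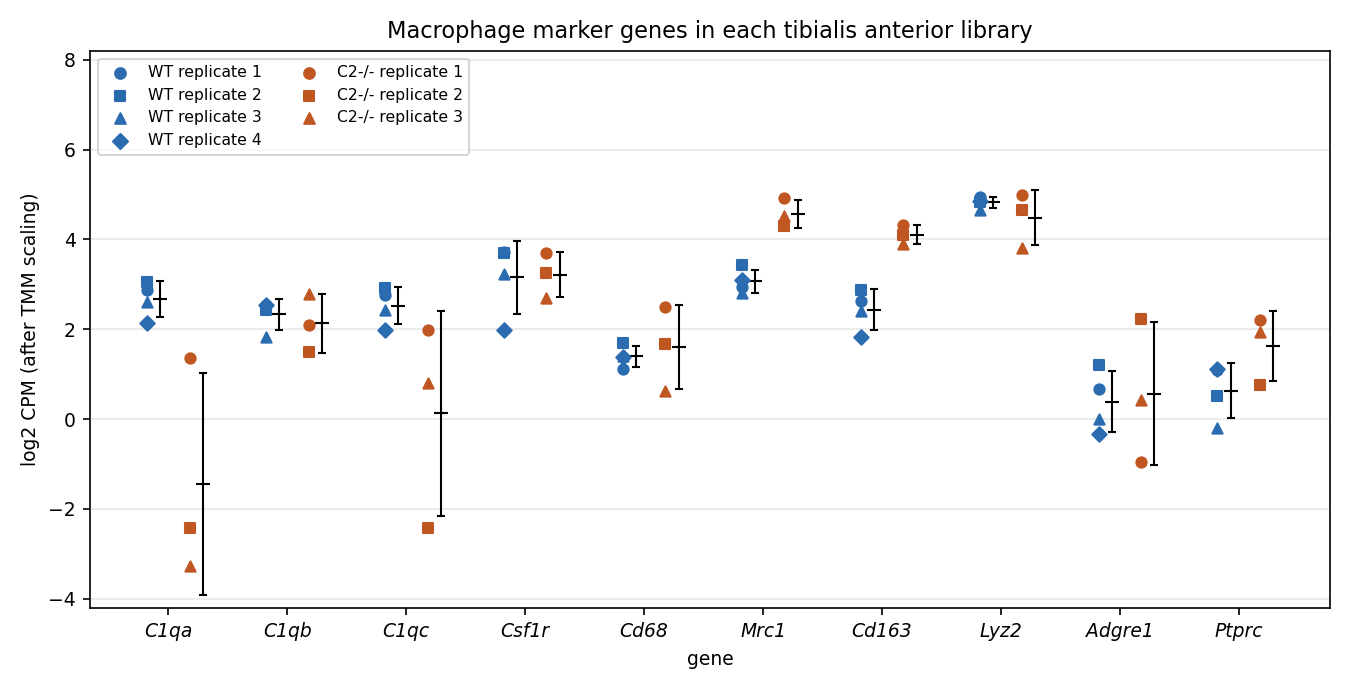
Log2 CPM after TMM scaling (vertical axis) of the 10 marker genes in each of the 4 WT (blue) and 3 C2-/- (orange) libraries, with the group mean and SD in black beside the points. *Mrc1* and *Cd163* of C2-/- lay above every WT point, *C1qa* and *C1qc* lay below, and the points of the other 6 genes overlapped.

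The C1q chains were examined first. They are assembled in equal numbers into C1q, and their genes lie side by side on the minus strand of chromosome 4 (GRCm38.p6), *C1qb* at 136880126 to 136886200, *C1qc* at 136889801 to 136892936 and *C1qa* at 136895916 to 136898844. *C1qa* stood at 2.87, 3.06, 2.61 and 2.15 in WT replicates 1 to 4 and at 1.37, -2.42 and -3.27 in C2-/- replicates 1 to 3. Every C2-/- library lay below every WT library, and C2-/- replicates 2 and 3 had no read of the gene. The change of *C1qa* was -4.11 (SE 0.98, 95% interval -6.29 to -1.94, limma adjusted p = 0.00754), and the C2-/- mean was at -3.59 from WT replicate 4, the WT library in the depth range of C2-/-. On the linear scale *C1qa* was at 6.49 ± 1.71 CPM in WT (SD, n = 4) and 0.803 ± 1.39 CPM in C2-/- (SD, n = 3). At the mean WT level, 18.9, 17.3 and 31.4 reads would have been counted in the C2-/- libraries, where 7, 0 and 0 were found. The size of the change on the log2 scale rests on the 0.5 reads added to a count of 0, and it was -2.73 with 2 reads added (adjusted p = 0.00523). With each library left out in turn the change ranged from -5.52, without C2-/- replicate 1, to -3.20, without C2-/- replicate 3, and it stayed past the threshold each time. GC correction ended the call (-2.48, limma adjusted p = 0.0718).

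*C1qc* had a smaller and less certain change. Its values were 2.77, 2.91, 2.43 and 1.99 in WT and 1.98, -2.42 and 0.81 in C2-/-. The groups nearly met, with WT replicate 4 at 1.99 and C2-/- replicate 1 at 1.98, and the reads in C2-/- were 11, 0 and 8. The change was -2.40 (SE 0.90, 95% interval -4.39 to -0.40, limma adjusted p = 0.0497), and -1.87 against WT replicate 4 alone. *C1qc* stayed past the threshold when C2-/- replicate 1 was left out (-3.33) and lost it without any of the other 6 libraries. These values were -2.32, -2.27, -2.43 and -2.57 without WT replicates 1 to 4, -1.12 without C2-/- replicate 2 and -2.74 without C2-/- replicate 3, with limma adjusted p between 0.0623 and 0.111.

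*C1qb*, which encodes the B chain, did not pass the threshold. It stood at 2.54, 2.43, 1.83 and 2.54 in WT and at 2.10, 1.49 and 2.79 in C2-/-. The groups overlapped, and C2-/- replicate 3 was the highest of the 7 libraries. The change was -0.20 (SE 0.44, 95% interval -1.19 to 0.78, limma adjusted p = 0.723), and it was positive with quantile normalization (0.14) and after correction for GC content (1.17). C2-/- replicate 3 is the clearest case within a library, with 33 reads of *C1qb*, 8 of *C1qc* and 0 of *C1qa*. The reads of *C1qa* per read of *C1qb* were 1.26, 1.55, 1.72 and 0.760 in WT and 0.583, 0 and 0 in C2-/-. For *C1qc* the same ratio was 1.17, 1.40, 1.52 and 0.680 in WT and 0.917, 0 and 0.242 in C2-/-. *C1qb* has nearly the GC content of *C1qc* (57.4% and 57.5%), and *C1qa* is at 59.5%.

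**Figure D2:**
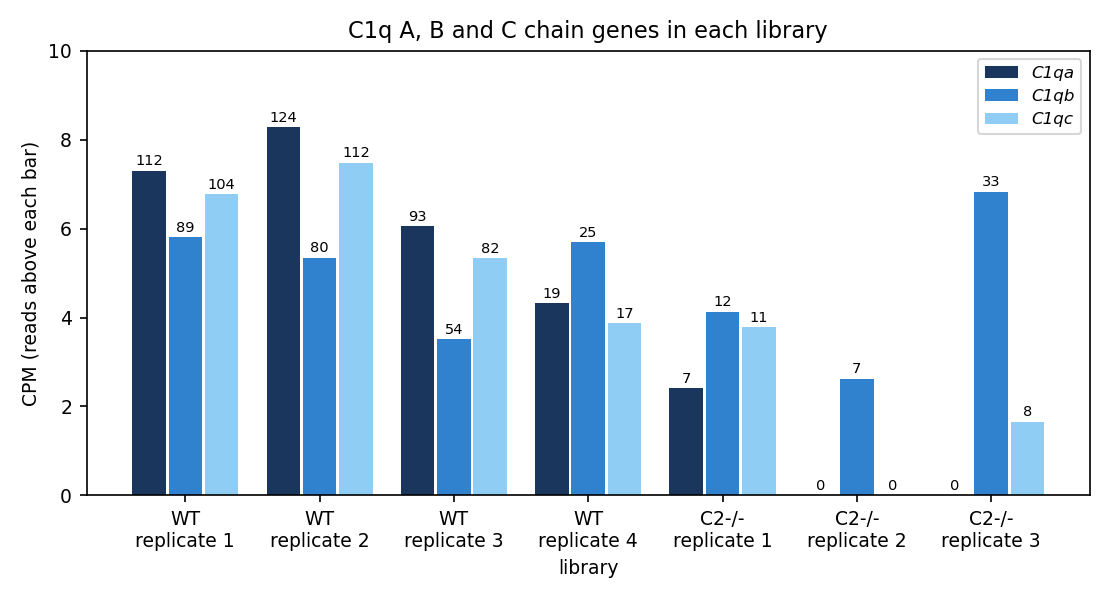
CPM of *C1qa*, *C1qb* and *C1qc* (bars, linear vertical axis from 0) in each library, with the number of reads above each bar. All 3 chains were counted in every WT library and in C2-/- replicate 1, *C1qb* alone was counted in C2-/- replicate 2, and *C1qb* with *C1qc* in C2-/- replicate 3.

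The endocytic receptors moved the other way. *Mrc1* (chromosome 2, 14229414 to 14332023, plus strand) stood at 2.94, 3.42, 2.81 and 3.09 in WT replicates 1 to 4 and at 4.91, 4.30 and 4.52 in C2-/- replicates 1 to 3. Its lowest C2-/- value was above its highest WT value, and the reads were 37 to 160 in WT and 52 to 110 in C2-/-, so no library was near the floor. The change was 1.51, a 2.85-fold rise (SE 0.29, 95% interval 0.87 to 2.15, limma adjusted p = 0.00270). The C2-/- mean was 1.48 above WT replicate 4 and 1.52 above the mean of the 3 deeper WT libraries. *Mrc1* has a low GC content of 43.4%, and after GC correction the change was 0.80 (limma adjusted p = 0.0714), no longer past the threshold. The groups did not overlap after the correction either, but the share of all genes without overlap was not counted on that scale.

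*Cd163* (chromosome 6, 124304636 to 124330529, plus strand) had values of 2.62, 2.88, 2.41 and 1.82 in WT and 4.33, 4.09 and 3.91 in C2-/-. All 3 C2-/- libraries lay above all 4 WT libraries, with 45 to 72 reads against 15 to 110 in the WT libraries. The change was 1.68, a 3.20-fold rise (SE 0.35, 95% interval 0.90 to 2.45, limma adjusted p = 0.00397). *Cd163* was the only marker gene past the threshold after GC correction, with a change of 1.53 (SE 0.34, limma adjusted p = 0.0126), where 20.6% of the 12175 genes with a GC value were past it. WT replicate 4 was its lowest library, and the C2-/- mean was 2.29 above that library and 1.47 above the mean of WT replicates 1 to 3. The change ranged from 1.47 to 1.83 when each library was left out in turn, and it was past the threshold each time.

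*Csf1r*, on which macrophage survival depends, did not pass. It stood at 3.72, 3.69, 3.22 and 1.99 in WT and at 3.69, 3.25 and 2.70 in C2-/-. WT replicate 4 was the lowest library and the other 6 overlapped. The change was 0.06 (SE 0.47, 95% interval -0.98 to 1.10, limma adjusted p = 0.925), and its sign turned without WT replicate 4 (-0.33) or without C2-/- replicate 1 (-0.18). The exons of *Csf1r* share 873 bases (15.1%) with *Hmgxb3* on the opposite strand, and reads there cannot be assigned without knowing whether strand was used in counting. After GC correction the change was 0.995 (limma adjusted p = 0.111). The groups did not overlap then, a pattern not counted over all genes on that scale. Of its ligands, *Csf1* changed by -0.59 (SE 0.29, limma adjusted p = 0.117) and *Il34* by -1.51 (SE 0.80, limma adjusted p = 0.141). Neither was past the threshold, and 0 of the 5 genes listed as *Csf1r* ligands and macrophage growth factor receptors was past it in either direction, against 45.2% of all genes. *Il34* passed when libraries were weighted by quality (-1.76, limma adjusted p = 0.0211) and without C2-/- replicate 2 (-2.62).

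Among the lysosomal genes, *Lyz2* had the highest level per kb of transcript in both groups. Its values were 4.95, 4.84, 4.66 and 4.85 in WT and 4.99, 4.66 and 3.80 in C2-/-. The WT libraries lay close together, and C2-/- replicate 3 was lower than the other 6. The change was -0.34 (SE 0.29, 95% interval -0.98 to 0.30, limma adjusted p = 0.344). *Lyz2* shares 15.4% of its 50-base stretches with its neighbour *Lyz1*, and the effect of this on its count was not tested. *Cd68* stood at 1.13, 1.70, 1.40 and 1.39 in WT and 2.51, 1.67 and 0.63 in C2-/-. The C2-/- libraries spread to both sides of the WT range, and the change was 0.20 (SE 0.54, 95% interval -1.0 to 1.40, limma adjusted p = 0.777).

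*Adgre1* and *Ptprc* had the lowest mean levels per kb of transcript among the marker genes in WT muscle. *Adgre1* had 24, 34, 15 and 3 reads in WT and 1, 12 and 6 in C2-/-, with log2 values of 0.68, 1.20, 0.01 and -0.33 and of -0.95, 2.23 and 0.43. C2-/- replicates 1 and 2 were the lowest and the highest of the 7 libraries. The change was 0.18 (SE 0.81, 95% interval -1.62 to 1.97, limma adjusted p = 0.870), so that a 3-fold change in either direction lay within the interval at this depth. *Ptprc* had 9 to 32 reads in WT and 4 to 18 in C2-/-. Its values were 1.08, 0.52, -0.19 and 1.11 in WT and 2.22, 0.75 and 1.94 in C2-/-, so that 2 of the 3 C2-/- libraries lay above WT. The change was 1.0 (SE 0.59, 95% interval -0.32 to 2.32, limma adjusted p = 0.185). It was past the threshold with quantile normalization (1.82, limma adjusted p = 0.0296) and in 0 of the other alternatives.

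The order of the marker genes was compared per kb of transcript. In WT muscle, *Lyz2* was the highest at 21.6 CPM per kb, followed by *C1qa* at 6.24, *C1qc* at 4.88, *C1qb* at 4.68, *Cd68* at 2.13, *Csf1r* at 2.08, *Mrc1* at 1.57, *Cd163* at 1.25, *Adgre1* at 0.424 and *Ptprc* at 0.315. In C2-/- muscle the level of *Lyz2* was 17.9 CPM per kb, of *Mrc1* 4.48, of *C1qb* 4.16 and of *Cd163* 3.88, whereas *C1qa* was at 0.772, near *Ptprc* at 0.637 and *Adgre1* at 0.626. *C1qa* thus went from the second place to the eighth by mean level, but its C2-/- mean rests on 7, 0 and 0 reads. Its SD in C2-/- (1.39 CPM) was larger than that mean (0.803 CPM). In WT, the 3 C1q genes did not differ among themselves beyond the larger SD of each pair, nor did *Cd68* from *Csf1r*, *Csf1r* from *Mrc1*, *Mrc1* from *Cd163* or *Adgre1* from *Ptprc*. *Cd68* and *Cd163*, further apart in the order, differed by more than the SD of either. In C2-/-, *Mrc1*, *C1qb* and *Cd163* did not differ beyond the larger SD. Set against lysozyme, both receptors were higher in every C2-/- library than in any WT library. The reads of *Mrc1* per read of *Lyz2* were 0.246, 0.373, 0.276 and 0.294 in WT and 0.946, 0.776 and 1.64 in C2-/-, and those of *Cd163* were 0.198, 0.256, 0.209 and 0.119 in WT and 0.630, 0.672 and 1.07 in C2-/-.

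The mean of the marker genes in each library was used as a summary. Relative to the mean of each gene over the 7 libraries, it was 0.29, 0.43, -0.12 and -0.18 in WT replicates 1 to 4 and 0.48, -0.48 and -0.41 in C2-/- replicates 1 to 3. The group means were 0.10 ± 0.30 (SD, n = 4) and -0.14 ± 0.53 (SD, n = 3), and the difference of -0.24 was smaller than the SD of C2-/-. C2-/- replicate 1 was the highest and C2-/- replicate 2 the lowest of the 7 libraries. The mean joins genes that moved in opposite directions. The 3 C1q genes averaged 1.18, 1.25, 0.74 and 0.68 in WT and 0.27, -2.67 and -1.44 in C2-/-, and the other 7 genes averaged -0.09, 0.07, -0.49 and -0.55 in WT and 0.56, 0.46 and 0.03 in C2-/-, a subdivision made after the values were seen. The summed CPM of all 10 genes was 83.5, 87.6, 66.1 and 63.5 in WT and 114.9, 82.4 and 72.9 in C2-/-. *Lyz2* made up 32.7% to 45.2% of that sum in WT and 19.0% to 30.5% in C2-/-.

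The genes most like this mean over the 7 libraries, by Pearson's r among 9985 genes with at least 3 reads in every library, were *Habp4* (0.99), *Rprd1a* (0.95), *Rpl7* (0.93), *Dnajc10* (0.91) and *Mcpt4* (0.90). These r values describe 7 libraries that differ in genotype and depth, and as the highest of 9985 they were not tested. The mean also includes values of *C1qa* and *C1qc* placed by 0 reads in C2-/- libraries. *Mcpt4* encodes a mast cell protease, and the other 4 are expressed in most cell types.

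Changes of the marker genes followed the GC content of their transcripts, as did those of all genes. The GC content ran from 42.7% in *Ptprc* to 59.5% in *C1qa*, and over the 10 genes Pearson's r of change with GC content was -0.78 and Spearman's rho was -0.81. Across 12175 genes the rho was -0.68. These values are descriptions across genes, which share the same 7 libraries. After each library's dependence on GC content was replaced by the common curve, 1 of the 10 genes was past the threshold, the median change of the 10 was 0.50 against 0.02 over all genes, and *C1qa* changed by -2.48 (SE 0.89, limma adjusted p = 0.0718) and *C1qc* by -1.0 (SE 0.79, limma adjusted p = 0.392). In that corrected scale *C1qa* of C2-/- replicate 1 lay within the WT range. C2-/- replicates 2 and 3, with 0 reads of *C1qa*, lay below it at a distance set by the 0.5 reads added before the log. The values of *C1qb* in C2-/- lay above those of WT with no overlap (change 1.17, limma adjusted p = 0.0905). How many of all genes show no overlap in that scale was not counted. The difference in the mean of the marker genes turned from -0.24 to 0.16. The labels give no library batch, and the 3 deepest libraries were all WT, so genotype cannot be told apart from depth or from a GC-dependent difference between the libraries in any of these changes.

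**Figure D3:**
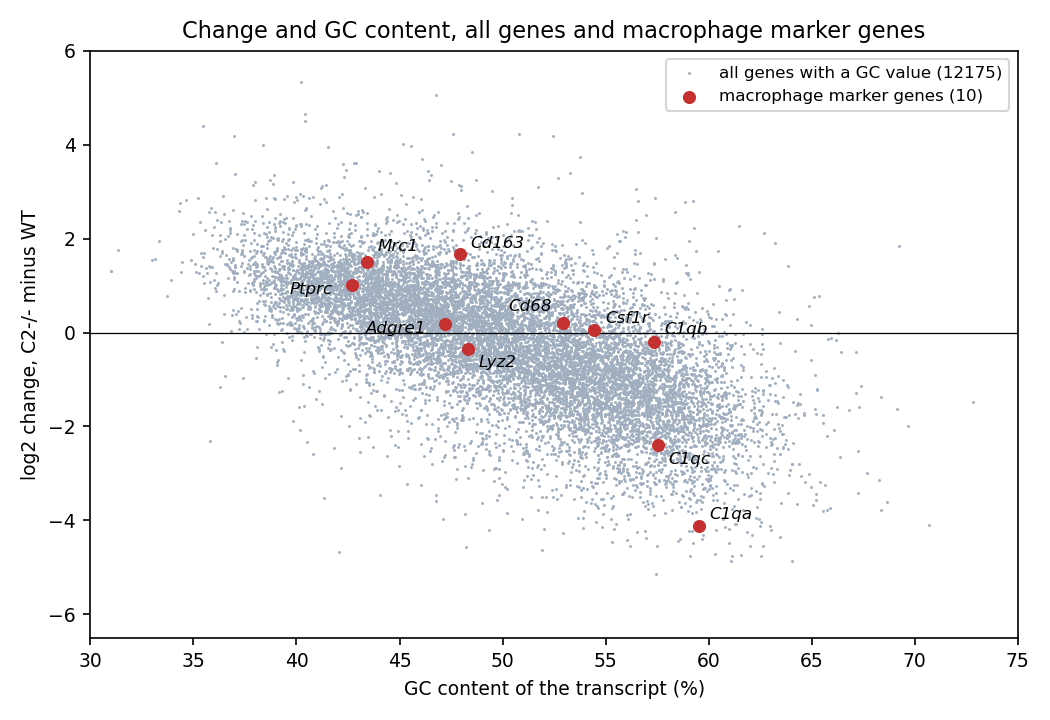
Log2 change (C2-/- minus WT, vertical axis) against GC content of the transcript in percent (horizontal axis), for 12175 genes in grey and the 10 marker genes in red, with 2 genes outside the axes. The marker genes slope down with the other genes, *Cd163* lies on the upper side of the grey cloud at 47.9% GC, and *C1qa* lies at its lower edge at 59.5%.

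**Figure D4:**
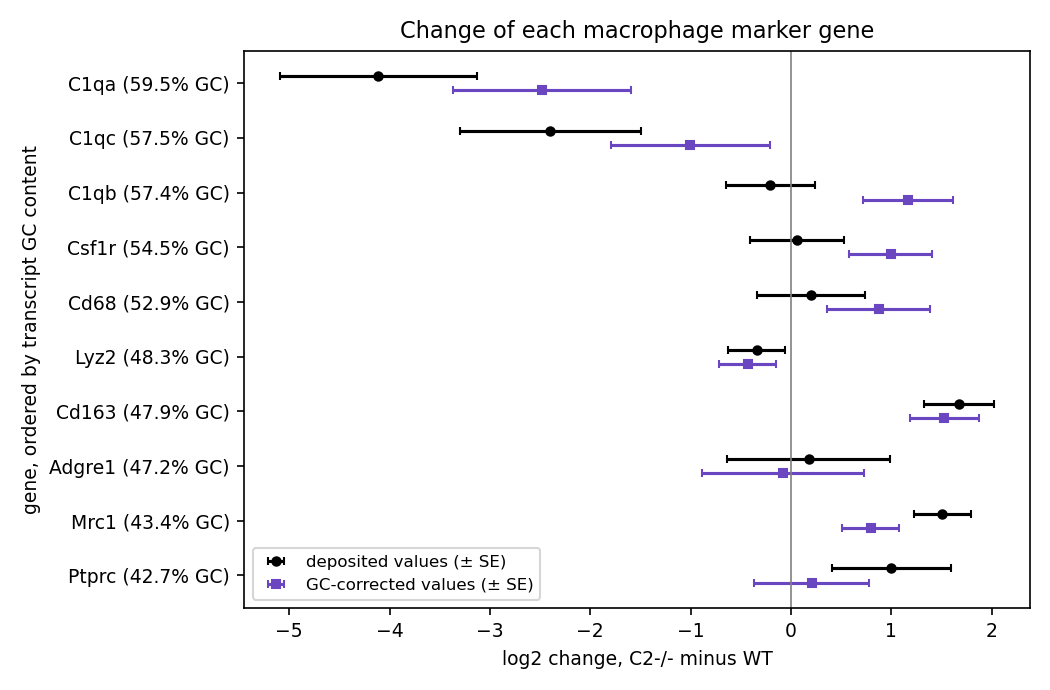
Change of each marker gene with its SE (horizontal axis, log2), with the genes ordered from the highest GC content at the top, before (black) and after (violet) GC correction. *Cd163* moved least among the 4 genes past the threshold, from 1.68 to 1.53, and *C1qb* went from -0.20 to 1.17.

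Of 44 further macrophage and monocyte genes, 31 were analysed, and 7 of these were higher and 2 lower past the threshold, with a median change of 0.56, where 45.2% of all genes were past it. The highest rises were in *Vsig4*, the complement receptor CRIg of resident macrophages, at 3.40 (SE 0.74, limma adjusted p = 0.00511), and *Ms4a7*, a membrane protein of macrophages, at 2.53 (SE 0.67, limma adjusted p = 0.0123). *Vsig4* had 5, 3, 3 and 0 reads in WT and 5, 8 and 9 in C2-/-, and *Ms4a7* had 11, 6, 5 and 1 in WT and 4, 10 and 13 in C2-/-, so that the size of both changes is uncertain. *Itgam*, the CD11b integrin chain of myeloid cells, rose by 2.07 (SE 0.53, limma adjusted p = 0.0106), with 3 to 26 reads in WT and 11 to 23 in the shallower C2-/- libraries. *Ccr2*, the chemokine receptor of recruited monocytes, rose by 2.43 (SE 0.65, limma adjusted p = 0.0127), with 11, 10, 9 and 1 reads in WT and 13, 4 and 18 in C2-/-. *Lyve1*, a hyaluronan receptor of resident macrophages and lymphatic vessels, changed by 1.88 without passing (limma adjusted p = 0.0637), and WT replicate 4 was above every C2-/- library. *Lyve1* was past the threshold in 6 of 15 alternatives, among them voom (2.34), quantile normalization (2.22) and thinned reads (2.25), and without WT replicate 4 (2.71). *Cx3cr1* was not analysed here. *Cbr2* (-2.34), with 25, 2 and 37 reads in C2-/-, and *Stab1* (-1.22) were lower. The 22 genes of this list that were not past the threshold lay on both sides of 0, from -1.76 to 1.88. *Cbr2* lost the call without WT replicate 2 (-2.21), WT replicate 4 (-2.03) or C2-/- replicate 2 (-1.29), and *Stab1* lost it without any of WT replicates 1 to 3 or C2-/- replicate 3 (-1.20 to -1.07). After GC correction 4 of the 31 genes were higher and 0 lower, with *Itgam* (2.06), *Vsig4* (2.82) and *Maf* (0.78) past the threshold before and after it and *Ifi30* (1.55) only after it, where 20.6% of genes were past the threshold. It ended the calls of *Ccr2* (1.28, limma adjusted p = 0.196), *Ms4a7* (1.72, limma adjusted p = 0.0865) and *Cbr2* (-1.03, limma adjusted p = 0.331), and *Stab1* turned to 0.15.

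Of 9 chemokines of monocytes and macrophages, 5 were analysed, where 45.2% of all genes were past the threshold, and *Ccl9* was higher (1.93) and *Cx3cl1* lower (-1.60, limma adjusted p = 0.0493). *Cx3cl1* stayed past the threshold only without C2-/- replicate 1 when each library was left out in turn (-1.98 to -1.10), and in 2 of 14 other alternatives. Among genes of the classical complement pathway and its regulators, the membrane-bound inhibitor *Cd55* was higher (1.41) and *C3*, the central component on which the pathways converge, was lower (-1.14), a call that held only without WT replicate 3 or C2-/- replicate 1 when each library was left out (-1.55 to -0.63). Neither these genes nor the chemokines were past the threshold after GC correction.

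Genes of other cell types were past the threshold in the same libraries, beside the 45.2% of all genes. Of 10 fibroblast genes, 6 were higher and 2 lower, with *Dcn* and *Col1a2* each up by 1.94, and their summed CPM was 1014 to 1229 in WT and 2096 to 2636 in C2-/-. After GC correction 4 were higher, with *Dcn* at 1.12 and *Col1a2* at 3.07, and 0 lower. *Pi16* went from -2.21 to -1.20 (limma adjusted p = 0.102) and *Gsn* from -1.17 to 0.16. Of 10 endothelial genes, 1 was higher (*Emcn*, 1.14) and 4 were lower, with *Cldn5* at -2.31 and *Egfl7* at -2.29, and the summed CPM was 456 to 682 in WT and 348 to 460 in C2-/-. After GC correction 0 were higher and 1 lower, with *Emcn* at 0.22, *Cldn5* at -0.58 and *Egfl7* at -0.77. With each library left out in turn, *Emcn* (0.947 to 1.496) passed only without WT replicate 4 and *Cldn5* (-3.42 to -1.23) only without C2-/- replicate 2. Of 8 fibre genes, 5 were lower, with *Acta1* at -2.02 and *Ckm* at -1.86, and their summed CPM was 187409 to 217165 in WT and 97517 to 117311 in C2-/-, so the tissue was muscle by its markers in both groups. After GC correction 2 of the 8 were lower, the median change went from -0.97 to -0.12, and *Acta1* (-0.70, limma adjusted p = 0.0937) no longer passed whereas *Ckm* did. Single genes passed in the lists of muscle stem cells (*Myf5*, 1.95), adipocytes (*Fabp4*, 1.47) and pericytes and smooth muscle (*Tagln*, -1.0), and all 3 calls were lost after GC correction, at 1.04, 0.41 and -0.40. Instead, *Plin1* of the adipocyte list (3.81) and *Myh11* of the smooth muscle list (0.95) were higher past the threshold only after it, and these genes, like *Ifi30* and *Maf*, were named after their values were seen. With each library left out, *Myf5* (1.55 to 2.24) passed only without C2-/- replicate 2. Of 22 genes of other blood leukocytes 4 were analysed, all of mast cells, and 0 passed. The part of these cell types in the changes of the marker genes was not tested.

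**Figure D5:**
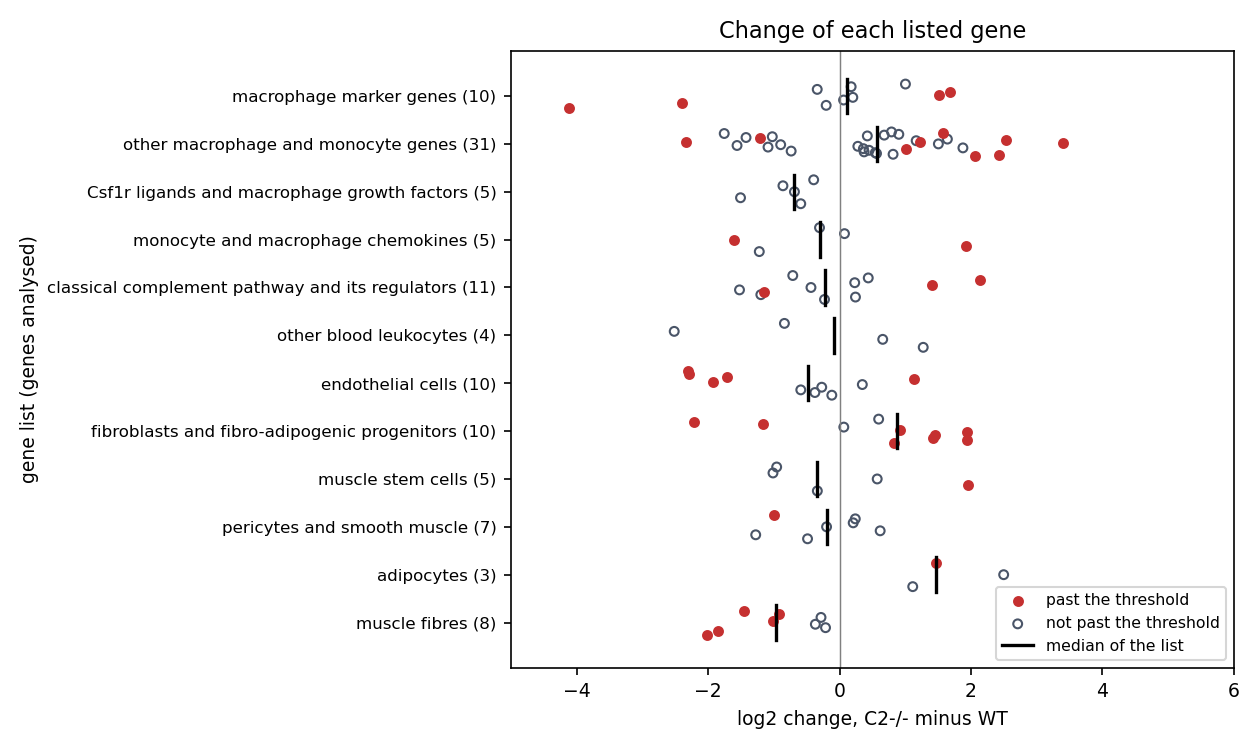
Log2 change (C2-/- minus WT, horizontal axis) of each analysed gene of 12 lists (rows, with the number of genes), past the threshold in red and not past it as open circles, with the list's median as a black bar. The marker genes spread from -4.11 to 1.68, wider than the fibre genes, which all lay below 0.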

How the data were processed

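Total RNA of TA muscle was oligo(dT)-selected and sequenced as DNA nanoballs. According to the submitters' processing notes and the study's methods, the authors aligned reads to GRCm38.p6 with HISAT, counted them with featureCounts (1.5.2), scaled them with edgeR's TMM factors and deposited log2 values for 12239 genes. The gene filter and the use of strand are not given in the sources used here. Their other deposited table holds their own comparison (log2 fold changes and p-values) and was not used.

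Each value equalled log2 of a whole read number plus 0.5 per effective library size, and 100% of values came out whole within 0.001 reads. The test was limma 3.58.1 in R 4.3.3 (lmFit, eBayes with a mean-variance trend, two-sided) on the deposited log2 values with genotype as the term, and it was tested on simulated data. The study gives as many mice as libraries in each group, and the labels name no animal, so p-values measure the spread between these libraries. GC content came from GENCODE transcripts matched to 12175 genes (99.5%), and was corrected with a natural spline of 5 degrees of freedom per library. Markers, lists and tests were chosen with earlier results of these data known. Named beyond the markers are *Mybpc2*, *Csf1*, *Il34*, *Itgam*, *Cx3cr1*, *Ccr2* and *Lyve1*, up to 2 rises and 2 falls past the threshold per list, and the 5 genes most like the marker mean. 1 result of the complement list is not reported here. Alternatives covered normalization, pseudocount, filters, weights, GC content and length, depth, pairing, threshold and each library left out.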

Additional observations from a re-analysis of the deposited data

Results flagged for a closer look

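Among 40 values tested within the 4 WT libraries, 4 had a lowest or highest library far from the other 3 by Dixon's criterion, and chance gives about 1 in 20, here 2. For the marker genes this was *C1qb*, which stood at 1.83 in WT replicate 3 and at 2.43 to 2.54 in the other WT libraries. The other 3 cases were all WT replicate 4. Its reads summed to 4683853, while those of WT replicates 1 to 3 summed to 14929214 to 15464499. *Cd55*, an inhibitor of complement on cell surfaces, stood at 7.48 there and at 5.86 to 6.12 elsewhere in WT, so that WT replicate 4 reached the lowest C2-/- value of 7.47. *Fabp4*, a fatty acid-binding protein of adipocytes and capillaries, stood at 8.48 there and at 7.28 to 7.39 in the other WT libraries, below the C2-/- range of 8.85 to 9.30.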

How the results depend on the processing

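The count of marker genes past the threshold was 1 with the GC correction, with GC and length, and with the replicate block plus GC (*Cd163* each time), and 2 when genes with a mean log2 value under 3 were left out. It was 3 to 5 in the other 11 alternatives and 3 to 4 with each library left out. The corresponding counts were 2508, 2513 and 2915 over all genes and 13, 13 and 20 over the other lists, and an adjusted p under 0.01 gave 3216 and 18. Leaving out each library gave 4095 to 6136 and 26 to 39. The mean of the marker genes differed by 0.27 with quantile normalization and 0.73 with the filter at 3, which keeps fewer genes, and by -0.55 to -0.07 with a library left out. *Cd163* stayed past the threshold in all 15 alternatives (1.32 to 1.88), *Mrc1* in 12 of 15, *C1qa* in 11 of 14 and *C1qc* in 7 of 14. The replicate block gave 5901 genes and 4 marker genes. Deviations of same-numbered libraries correlated at 0.05, -0.06 and -0.05, and those of differently numbered libraries at -0.11 to 0.12. No pairing by number was seen in these values.

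Sign changes were seen in 9 genes, and the cause was not tested. *Csf1r* gave -0.22 with voom, -0.27 with library weights and -0.33 with the block. *Adgre1* gave -0.55 with weights, -0.076 with GC, -0.064 with the block and -0.33 with block and GC. *C1qb* gave 0.14 with quantile normalization, 1.17 with GC, 0.95 with GC and length and 1.34 with block and GC. With GC, GC and length, and block with GC in turn, *Gsn* gave 0.16, 0.25 and 0.013 and *Csf1* 0.33, 0.42 and 0.45. *Stab1* gave 0.15 and 0.16 with the first 2, and with the last *Cx3cl1* gave 0.047 and *Il34* 0.13. With a library left out, *Csf1r* ranged from -0.33 to 0.32, *Adgre1* from -0.65 to 0.94, *Cd68* from -0.25 to 0.69 and *C1qb* from -0.54 to 0.12. Depth limits *Adgre1* and *Ptprc*, with as few as 1 and 4 reads in a library.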
